A study of Mus musculus with 36 samples.

Results

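The 8 mouse genes described here are the 5 lysyl oxidases (Lox, Loxl1, Loxl2, Loxl3 and Loxl4) and the 3 lysyl hydroxylases (Plod1, Plod2 and Plod3), chosen by name from the 48795 genes of the count table. All 8 were found by their Ensembl identifiers, and all 8 were among the 15901 genes that passed the filter on low counts and were tested. RNA was sequenced from cultured lung pericyte-like cells of female and male mice, which had been depleted of cells carrying CD31, CD45 or CD326 and then selected for PDGFRβ. The cells were exposed for 24 h or 6 h to injured bronchoalveolar lavage fluid (BALF) in reduced-serum medium, to uninjured BALF in the same medium, or to that medium mixed with saline (media only). Each of the 6 treatment-by-hours groups had 6 libraries, 3 from female and 3 from male cells, 36 in all. The labels used here give neither the strain, age or number of the animals nor the kind of injury. They do not state that the replicates are separate cultures, so each p-value reflects only how far these libraries spread, which may be technical.

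Fibrillar collagen and elastin gain their tensile strength from covalent cross-links that start at lysine residues. Lysyl hydroxylases act first, inside the endoplasmic reticulum, on lysines of procollagen, and need iron, ascorbate and oxoglutarate to do so. Lysyl oxidases act later, outside the cell, where these copper enzymes oxidise lysine or hydroxylysine to the aldehydes that then condense into cross-links. Pericytes, the mural cells of capillaries, can lay down matrix in the lung, and both families are studied there for their part in fibrosis and in elastic fibre assembly.

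The library totals lay between 17134840 and 35991683 counts, and mitochondrial genes took 1.2% to 3.87% of them. The pericyte marker list, 8 genes summed, lay between 403 and 1287 CPM (counts scaled to a common library size), with Pdgfrb at 256 to 862 CPM, Cspg4 at 14.2 to 270 CPM, and Kcnj8 and Abcc9, which mark pericytes in tissue, at no more than 0.480 and 0.642 CPM. The fibroblast list, which holds Col1a1, lay between 5650 and 13528 CPM, and the smooth muscle list, which holds Acta2, between 3540 and 13425 CPM. Single genes made up most of some sums. By median, Col1a1 had 8542 CPM of a fibroblast sum of 9169, and Acta2 7703 CPM of a smooth muscle sum of 9048. S100a8 had 0.768 CPM of a neutrophil sum of 1.05, and S100a9 was at 0 in 25 libraries. A shift in such a sum can be that of 1 gene. The libraries numbered 1 and 2 in the labels were the closest pair in 10 of the 12 groups by treatment, hours and sex, with a median root-mean-square log2 difference of 0.218, against 0.485 between numbers 1 and 3 and 0.462 between numbers 2 and 3. Calls of the 8 genes are therefore also given with libraries 1 and 2 of each group summed to 1, and those of other genes are said to hold or not under it. Numbers 1 and 2 were not the closest pair in female uninjured BALF 24 h (0.626, against 0.353 between 2 and 3). The same was so in female media only 24 h (0.705, against 0.472). There the sum joins less alike libraries and leaves the closest pair apart.

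The catalytic part of the lysyl oxidases holds a short segment of histidines that binds copper, and its codons show how the family members resemble each other. In the GENCODE M21 transcripts of build GRCm38 the segment was 33 bases long, was found once in each of the 5 oxidases and in none of the 3 hydroxylases, and was split by an intron in each oxidase. The split fell between exons 3 and 4 in Lox and Loxl1, between exons 10 and 11 in Loxl2 and Loxl3, and between exons 11 and 12 in Loxl4. Among the 3 scavenger-receptor-type members, Loxl2 and Loxl4 were the most alike. These 3 are printed here, with histidine codons in capitals, read 5′ to 3′ on the coding strand:
Loxl2, chr14:69682316-69689037, plus strand: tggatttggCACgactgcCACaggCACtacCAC
Loxl3, chr6:83049995-83050125, plus strand: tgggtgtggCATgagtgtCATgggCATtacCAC
Loxl4, chr19:42598807-42599899, minus strand: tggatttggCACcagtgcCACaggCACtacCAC
Loxl2 and Loxl4 shared 31 of the 33 bases, while Loxl3 shared 25 with each of them. Lox and Loxl1 shared 32 of 33, and Lox shared 22 to 24 with the other 3. Over the whole coding sequences, the longest identical run between any pair of the 8 genes was 32 bases, between Lox and Loxl1, and the longest between hydroxylases was 24 bases, between Plod1 and Plod3. The sources used here do not say how reads matching more than one of these genes were counted.

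The promoters of Loxl4 and Plod3 are shown because these were the members whose fall with time in injured BALF held without any single library. Each is 300 bases, 250 before and 50 after the gene's start, from RefSeq on GRCm38.p6, on the gene's own strand, and capitals mark the core of the hypoxia-inducible factor motif (ACGTG or GCGTG, on either strand):
Loxl4, chr19:42612757-42613056, minus strand: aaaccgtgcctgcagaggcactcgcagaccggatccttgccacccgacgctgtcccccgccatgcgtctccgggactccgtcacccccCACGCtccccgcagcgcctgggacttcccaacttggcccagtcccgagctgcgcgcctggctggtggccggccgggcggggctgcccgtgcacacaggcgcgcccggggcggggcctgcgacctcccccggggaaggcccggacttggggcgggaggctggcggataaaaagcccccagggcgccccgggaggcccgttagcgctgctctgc
Plod3, chr5:136986769-136987068, plus strand: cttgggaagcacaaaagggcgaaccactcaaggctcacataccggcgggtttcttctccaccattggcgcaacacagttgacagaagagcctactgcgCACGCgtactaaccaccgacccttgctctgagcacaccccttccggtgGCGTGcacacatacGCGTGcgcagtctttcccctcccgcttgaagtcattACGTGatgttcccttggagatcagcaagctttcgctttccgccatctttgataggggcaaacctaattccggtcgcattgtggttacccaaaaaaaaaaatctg
The core was found 1 time in the Loxl4 promoter and 4 times in the Plod3 promoter, and it was present in 43.8% of the 32851 promoters of this length. The Plod1 promoter (chr4:147936727-147937026, minus strand) held it 2 times. The AP-1 motif TGANTCA was in none of these 3 promoters and in 7.8% of all. Promoters of the other 5 members were not used here.

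Lox was the most abundant member in every library. In RPKM, which is CPM divided by the exon length in kilobases and so can be compared between genes, Lox averaged 748 over the 36 libraries, ranked 15 of the 15901 tested genes by average log2 CPM, and took 0.248% to 0.451% of all counts of a library. Its level lay between 480 and 1010 RPKM, a 2.10-fold range. Loxl1, which acts on elastin in elastic fibre assembly, averaged 133 RPKM, and Loxl2, which acts on basement membrane collagen IV, averaged 119 RPKM. Loxl1 stood above Loxl2 in 25 of the 36 libraries, so that the order of these neighbours was not fixed. It did so at 24 h in 5 of 6 libraries of injured BALF, 6 of 6 of uninjured BALF and 6 of 6 of media only, and at 6 h in 0 of 6, 3 of 6 and 5 of 6.

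Below them came Plod2 at 75.4 RPKM, Loxl3 at 67.2 RPKM and Plod3 at 60.9 RPKM, whose ranges over the libraries overlapped widely. Plod2, whose product hydroxylates the ends of collagen (the telopeptides), was above Loxl3 in 21 of 36 libraries and above Plod3 in 28 of 36. Loxl3 was above Plod3 in 21 of 36. Plod1, the hydroxylase of the collagen helix, averaged 19.8 RPKM and Loxl4 19.0 RPKM, and Plod1 was the higher of the pair in 19 of 36 libraries. Plod3, which can also glycosylate hydroxylysine, was the steadiest member, with a 1.65-fold range over the libraries, and Loxl3 varied most, 3.10-fold.

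Of the summed oxidase RPKM, Lox held between 63.5% and 71.8% by group mean. At 24 h it held 71.3% ± 2.9 in injured BALF, 67.2% ± 4.2 in uninjured BALF and 63.5% ± 3.2 in media only (mean ± SD, n = 6 each). Loxl1 held 12.1% ± 1.3, 13.6% ± 2.2 and 16.3% ± 2.4 in the same groups, and 9.46% ± 1.26, 10.5% ± 1.0 and 12.5% ± 1.6 in those treatments at 6 h. Loxl2 held between 10.2% and 11.9% in every group mean, Loxl3 between 4.98% and 7.40%, and Loxl4 between 1.51% and 1.92%. Among the hydroxylases, Plod2 held 49.6% ± 3.6 at 24 h and 42.4% ± 4.4 at 6 h in injured BALF, and 49.1% ± 4.7 at 24 h and 44.3% ± 5.2 at 6 h in uninjured BALF (n = 6 each). Plod3 held 36.9% ± 3.6 at 24 h and 46.7% ± 5.1 at 6 h in injured BALF, so that at 24 h it stood below Plod2 in 6 of 6 libraries, and at 6 h in 2 of 6. These shares are descriptions and were not tested.

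**Figure D1:**
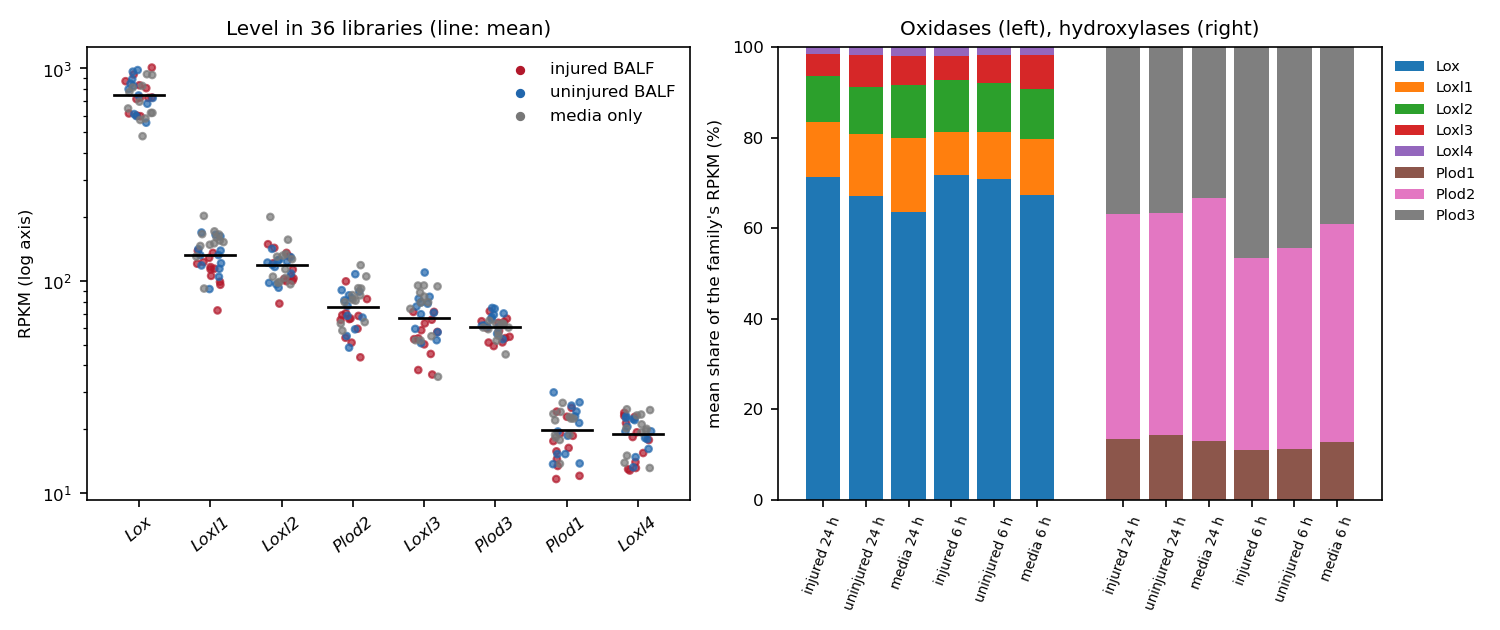
Left, the RPKM of each gene in all 36 libraries on a log axis, coloured by treatment, with the mean as a line. Right, the mean share of each gene in the summed RPKM of its family by treatment and hours; Lox fills 63.5% to 71.8% of the oxidase bars, and the Plod3 part of the hydroxylase bars is 36.9% in injured BALF at 24 h and 46.7% at 6 h.

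Differences between groups were tested with edgeR's quasi-likelihood test on all 15901 genes, with Benjamini-Hochberg adjustment, and a gene is called where its adjusted p is under 0.05. Each effect is the mean of the female and the male effect and is given as a log2 difference ± its standard error, with 6 libraries in each group, and CPM values are scaled by TMM. Over 12 such comparisons, including 2 differences of effects between times and 1 of sex, 9 of 96 member values were called, all of them lower in the first-named group. No member was called higher in any of them. Over all genes, the share called in these 12 comparisons ran from 0.239% to 30.7%, with calls in both directions in each. The 9 calls are therefore not read as a result about the families. Where a level is lower in these cell populations, fewer cells expressing the gene and less RNA per cell cannot be told apart. With libraries 1 and 2 of each group summed, 0 of the 9 calls remained, with adjusted p from 0.0815 to 0.355, while directions were kept. Fewer libraries enter this setting, and calls over all genes fell too in the comparisons of these 9 calls. The fall was from 4295 to 2898 for 24 h against 6 h in injured BALF. For injured BALF against media only at 6 h it was from 4011 to 2755, and for injured against uninjured BALF at 24 h from 703 to 174.

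The first question was whether injured BALF differs from uninjured BALF. At 24 h, Loxl3 was the member that fell. Loxl3, whose product is an oxidase with scavenger receptor domains that acts on collagens, had a lowest, median and highest value of 167, 239 and 270 CPM in injured BALF, against 234, 354 and 504 CPM in uninjured BALF. The groups overlapped, with 3 of 6 libraries in injured BALF below every library in uninjured BALF. Its mean was 226 ± 45 CPM in injured BALF and 351 ± 94 CPM in uninjured BALF (SD, n = 6 each), a log2 difference of -0.61 ± 0.16 (edgeR adjusted p = 0.0192). The difference was -0.41 ± 0.22 in female and -0.82 ± 0.22 in male cells, and the difference between the sexes, 0.41 ± 0.31, was not called (adjusted p = 1.00, edgeR). The share of all genes called was 4.42%, and 1 of 8 members was called.

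The Loxl3 call rested on single libraries. It ended without female injured BALF 24 h replicate 2 (adjusted p = 0.0713), without male injured BALF 24 h replicate 3 (0.0728), without female uninjured BALF 24 h replicate 3 (0.0856) and without male uninjured BALF 24 h replicate 3 (0.0654), with log2 differences between -0.53 and -0.52. The last of these, at 504 CPM, was the highest of all 36 libraries and is 1 of 4 libraries whose description number in the labels starts with other digits than the rest. The others are female media only 24 h replicate 2, male media only 24 h replicate 3 and male media only 6 h replicate 3. Injured BALF has none of them. These 4 had the lowest macrophage (13.3 to 14.8 CPM) and endothelial (8.29 to 14.4 CPM) list sums of the series. Where injured BALF is compared with a group that holds any of them, treatment and this set of libraries cannot be fully told apart. Uninjured BALF at 6 h holds none of them. Without those 4 libraries the difference was -0.52 (adjusted p = 0.0870). It was -0.71 (adjusted p = 0.145) with libraries 1 and 2 summed.

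The other 7 members were not called at 24 h. All 8 differences were below 0, where 50.8% of those of all genes were. The members' median was -0.20, against -0.0038 over all genes. Members correlated within groups, with r up to 0.88, so the 8 signs are not independent. Loxl4, an oxidase of the same subgroup as Loxl2 and Loxl3, had 54.0, 57.3 and 81.7 CPM (lowest, median and highest) in injured BALF, against 55.9, 84.6 and 97.2 CPM in uninjured BALF. Its log2 difference was -0.41 ± 0.15 (95% interval -0.72 to -0.10, adjusted p = 0.137), and it passed the threshold without the 4 libraries of differing number (-0.49, adjusted p = 0.0188) and without all libraries numbered 3 (-0.52, adjusted p = 0.0118). Loxl1 had a difference of -0.31 ± 0.14 (interval -0.60 to -0.01, adjusted p = 0.258) and Plod3 of -0.17 ± 0.08 (interval -0.32 to -0.01, adjusted p = 0.255). Lox had 2850, 3454 and 3985 CPM in injured BALF, against 2655, 3610 and 4257 CPM in uninjured BALF, and its difference was -0.06 ± 0.16 with an interval of -0.40 to 0.27. Plod1 and Plod2 differed by -0.23 ± 0.17 and -0.16 ± 0.17, and Loxl2 by -0.17 ± 0.15.

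Sums of the marker lists, some of which rest mostly on 1 gene, moved in the same comparison, and their part in the Loxl3 result was not tested. The pericyte list summed to 403 to 774 CPM in injured BALF at 24 h, against 632 to 1043 CPM in uninjured BALF. The smooth muscle list summed to 3554 to 6298 CPM, against 3540 to 10004 CPM. The neutrophil list, 7 genes, summed to 2.10 to 5.71 CPM, against 0.362 to 2.84 CPM, with Ngp at 0 in every library of injured BALF at 24 h. The macrophage list lay at 53.6 to 70.9 CPM, against 13.9 to 82.6 CPM, and the endothelial list at 25.9 to 163 CPM, against 8.29 to 125 CPM. The fibroblast list lay at 5650 to 10014 CPM, against 7198 to 12921 CPM. The mesothelial list lay at 11.5 to 107 CPM, against 15.3 to 51.0 CPM, and the epithelial list at 0.689 to 14.7 CPM, against 0.878 to 4.44 CPM. The highest endothelial, mesothelial and epithelial sums in injured BALF were all in male replicate 3. Female replicate 3 came next there, at 98.1, 43.6 and 3.83 CPM. The lowest of these sums in uninjured BALF were all in male replicate 3. Both male libraries are among those whose omission ended the Loxl3 call.

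At 6 h, injured and uninjured BALF could not be told apart for any member. The count was 0 of 8 called by edgeR and by DESeq2, with 0 of 8 at an unadjusted p under 0.05, where 3.43% of all genes were called. The differences ran from -0.24 (Plod2, interval -0.58 to 0.10) to 0.17 (Loxl4, interval -0.15 to 0.48). Lox differed by 0.04 ± 0.16 with an interval of -0.29 to 0.37, which leaves room for a change of either sign of about that size.

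**Figure D2:**
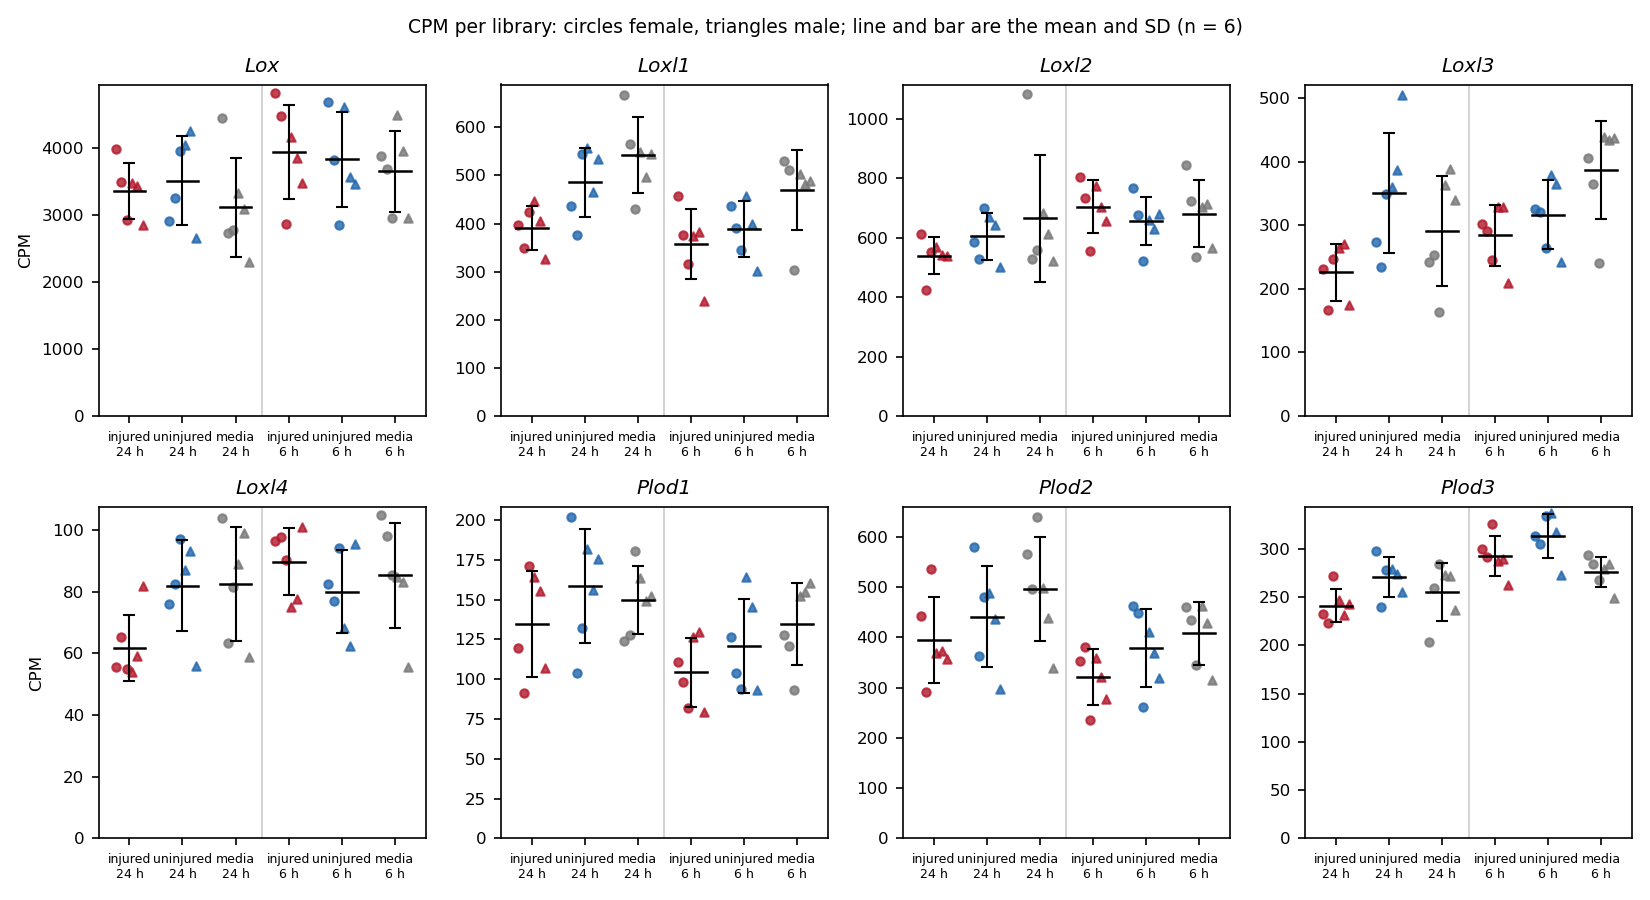
CPM of each member in every library, by treatment at 24 h (left of the grey line) and 6 h (right), with circles for female and triangles for male cells; the line and bar are the mean and SD of 6 libraries. Groups overlap in every panel; Loxl3 in injured BALF at 24 h spans 167 to 270 CPM, against 234 to 504 CPM in uninjured BALF, and Loxl2 has 1 media only library at 1082 CPM.

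The second question was how injured BALF differs from media only. Loxl1 was lower at both times. At 24 h it had 327, 401 and 447 CPM (lowest, median and highest) in injured BALF, against 430, 547 and 667 CPM in media only. In 5 of 6 libraries of injured BALF it lay below every media only library. The log2 difference was -0.47 ± 0.14 (edgeR adjusted p = 0.0169), with -0.51 ± 0.20 in female and -0.43 ± 0.20 in male cells. The call ended without female injured BALF 24 h replicate 2 (adjusted p = 0.0551), male injured BALF 24 h replicate 3 (0.0626) or female media only 24 h replicate 1 (0.0509). Uninjured BALF stood between the others with 376, 500 and 557 CPM, and differed from media only by -0.16 ± 0.14 (interval -0.45 to 0.13, not called).

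At 6 h Loxl1 had 240, 375 and 457 CPM in injured BALF, against 304, 495 and 529 CPM in media only, where 5 of 6 libraries lay at 482 CPM or more and 1 female library stood at 304 CPM. The log2 difference was -0.39 ± 0.14 (edgeR adjusted p = 0.0423). Loxl3 fell in the same comparison, with 209, 296 and 329 CPM in injured BALF, against 241, 420 and 438 CPM in media only, a difference of -0.43 ± 0.15 (edgeR adjusted p = 0.0388). Both calls ended without any one of 8 libraries: injured BALF 6 h female replicates 2 and 3 and male replicate 3, and media only 6 h female replicates 1 and 2 and male replicates 1, 2 and 3. Over these and the other single-library omissions the adjusted p reached 0.135 for Loxl1 and 0.122 for Loxl3. In female cells the differences were -0.22 ± 0.20 for Loxl1 and -0.27 ± 0.22 for Loxl3, and in male cells -0.56 ± 0.20 and -0.60 ± 0.22. Of all genes, 25.2% were called at 6 h, and of the members 2 of 8.

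Loxl4 fell in injured BALF against media only at 24 h. It had 54.0, 57.3 and 81.7 CPM in injured BALF, against 58.7, 85.3 and 104 CPM in media only, and 3 of 6 libraries of injured BALF lay below every media only library. The log2 difference was -0.42 ± 0.15 (edgeR adjusted p = 0.0427), close to the threshold, and it crossed back over it in 17 of 36 omissions of 1 library, with adjusted p up to 0.131. The difference was -0.30 (adjusted p = 0.355) with libraries 1 and 2 summed. Of all genes 23.7% were called at 24 h, and of the members 2 of 8. Loxl3 differed by -0.32 ± 0.15 (adjusted p = 0.131), Plod2 by -0.32 ± 0.17 (adjusted p = 0.166) and Lox by 0.11 ± 0.16 (interval -0.22 to 0.44).

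Sums of several marker lists, some of which rest mostly on 1 gene, moved in these comparisons too. Their part in the Loxl1, Loxl3 and Loxl4 results was not tested. The pericyte list averaged 603 ± 138 CPM in injured BALF and 1063 ± 135 CPM in media only at 24 h, and 782 ± 209 CPM and 1115 ± 208 CPM at 6 h (SD, n = 6 each). The neutrophil list averaged 3.39 ± 1.303 CPM in injured BALF and 0.451 ± 0.338 CPM in media only at 24 h, and 1.68 ± 0.75 CPM and 0.728 ± 0.623 CPM at 6 h. The smooth muscle list averaged 5269 ± 956 CPM in injured BALF and 9590 ± 1886 CPM in media only at 24 h, and 9099 ± 1906 CPM and 11105 ± 1792 CPM at 6 h. The fibroblast list averaged 7776 ± 1818 CPM in injured BALF and 10731 ± 2399 CPM in media only at 24 h, and 8046 ± 1690 CPM and 10786 ± 2263 CPM at 6 h. The macrophage list averaged 61.1 ± 6.3 CPM in injured BALF and 37.1 ± 19.6 CPM in media only at 24 h, and 61.5 ± 8.2 CPM and 51.2 ± 19.7 CPM at 6 h. Its lowest media only values at 24 h, 13.3 and 14.8 CPM, were in libraries of differing description number. At 6 h the endothelial list averaged 83.7 ± 59.3 CPM in injured BALF and 62.2 ± 48.4 CPM in media only. The mesothelial list averaged 41.5 ± 44.5 CPM and 27.8 ± 13.5 CPM there, and the epithelial list 6.88 ± 10.44 CPM and 1.79 ± 1.23 CPM. Male injured BALF 6 h replicate 3 was highest of its group on each, at 182, 130 and 28.1 CPM. Male media only 6 h replicate 3 was lowest of its group, at 8.47, 13.5 and 0.355 CPM. At 24 h the endothelial list averaged 74.1 ± 51.6 CPM in injured BALF and 53.3 ± 51.8 CPM in media only. The mesothelial list averaged 36.5 ± 36.1 CPM and 33.6 ± 15.9 CPM there, and the epithelial list 3.81 ± 5.44 CPM and 2.12 ± 2.02 CPM. The media only group at 24 h holds female replicate 1, which had the highest share of mitochondrial counts of the series (3.87%).

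Uninjured BALF was set against media only to see what lavage fluid without injury does. No member was called at either time: the count was 0 of 8 by edgeR and by DESeq2, with 1 of 8 at an unadjusted p under 0.05 at 6 h and 0 of 8 at 24 h. Of all genes 0.868% were called at 24 h and 18.4% at 6 h. The member that came nearest was Plod3 at 6 h, with 273, 315 and 337 CPM in uninjured BALF, against 250, 282 and 294 CPM in media only, and 5 of 6 libraries of uninjured BALF above every media only library. Its log2 difference was 0.18 ± 0.08 (interval 0.02 to 0.34, edgeR adjusted p = 0.0998). Among omissions of 1 library, it passed only without female media only 24 h replicate 1 (edgeR adjusted p = 0.0483). With all libraries numbered 3 left out, 1 of 8 members was called in this comparison at 6 h. Loxl3 went in opposite directions at the 2 times, 0.29 ± 0.15 at 24 h and -0.28 ± 0.15 at 6 h, neither of them called. The difference between those effects was 0.57 ± 0.22 (adjusted p = 0.186), in a comparison that called 1.96% of all genes and 0 of 8 members by edgeR and DESeq2 (1 of 8 at an unadjusted p under 0.05).

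**Figure D3:**
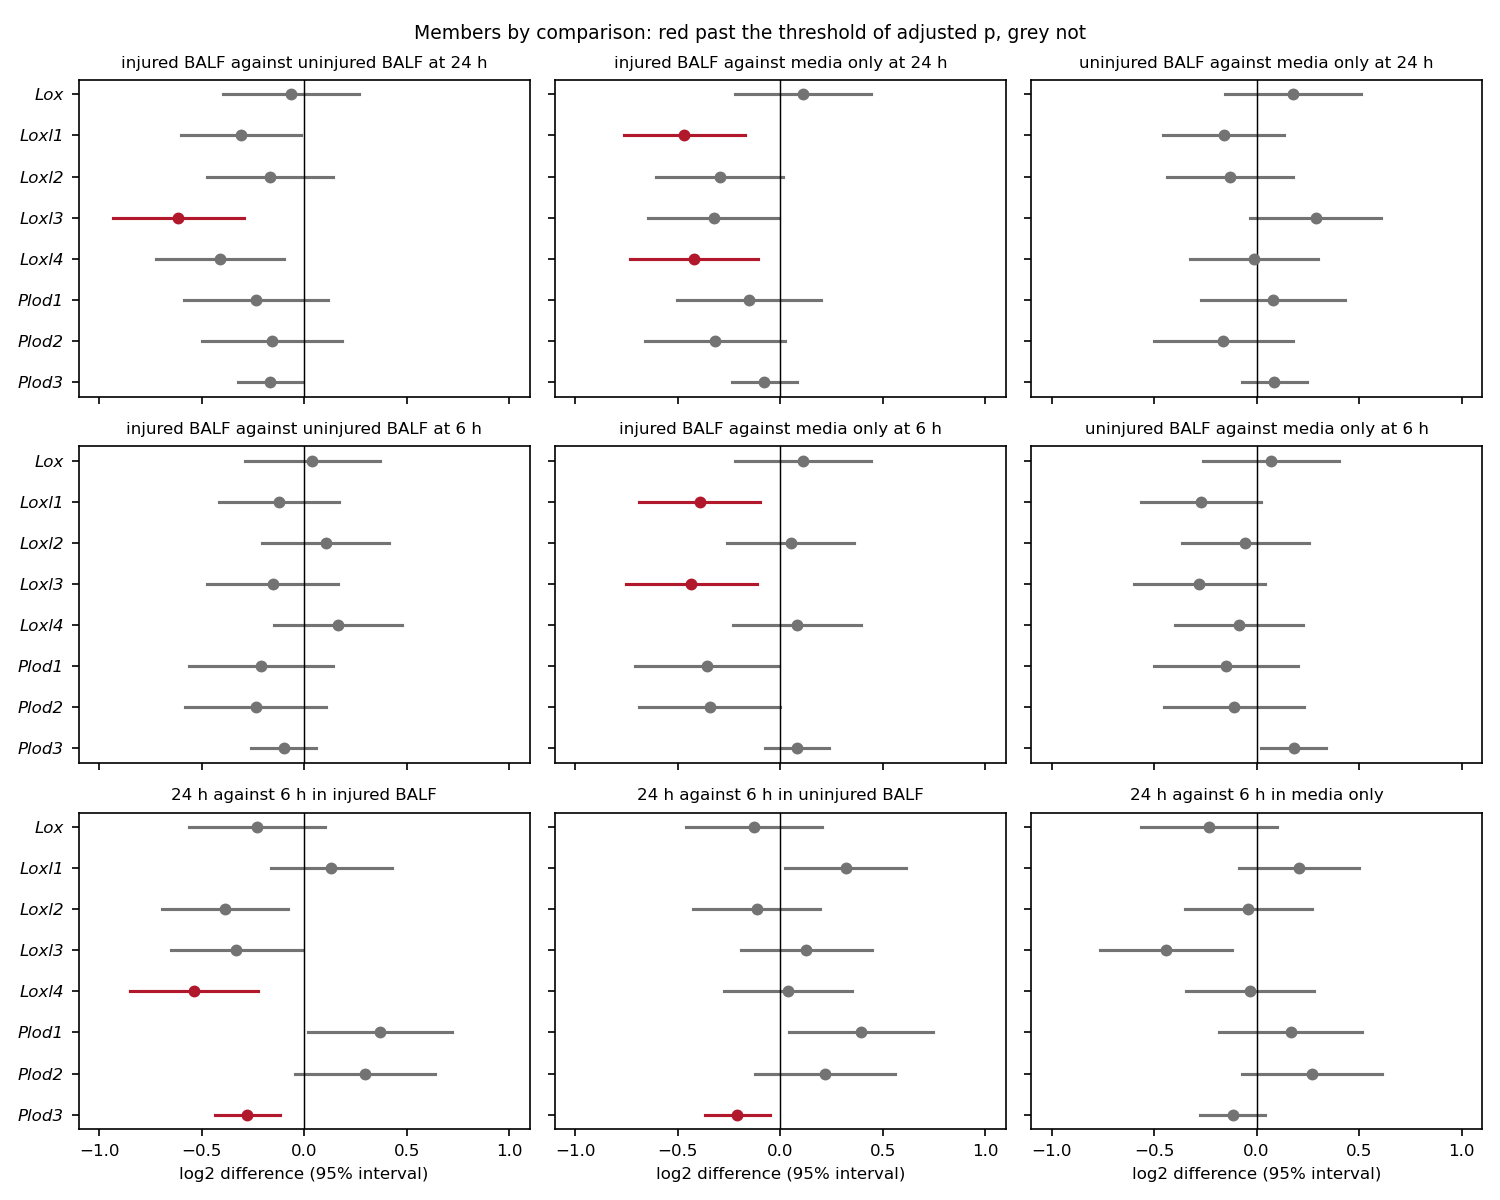
Log2 differences of the 8 genes with 95% intervals in the 6 treatment comparisons (upper rows) and the 3 comparisons of 24 h against 6 h (bottom row), red where the adjusted p was under 0.05. All red points lie left of 0, and Plod3 has the narrowest intervals.

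Time in culture was the third comparison. Loxl4 and Plod3 were both lower at 24 h than at 6 h in injured BALF. Loxl4, whose promoter is printed above, had 54.0, 57.3 and 81.7 CPM at 24 h, against 75.1, 93.4 and 101 CPM at 6 h, and 5 of 6 libraries at 24 h lay below every library at 6 h. The log2 difference was -0.54 ± 0.15 (edgeR adjusted p = 0.00888). It was -0.70 ± 0.22 in female and -0.38 ± 0.21 in male cells, and it stayed past the threshold without any 1 of the 36 libraries (adjusted p at most 0.0358).

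Plod3 had 223, 238 and 272 CPM at 24 h, against 263, 291 and 325 CPM at 6 h in injured BALF, again with 5 of 6 libraries at 24 h below every library at 6 h. The difference was -0.28 ± 0.08 (edgeR adjusted p = 0.00760), with -0.34 ± 0.11 in female and -0.22 ± 0.11 in male cells, and it too stayed past the threshold without any 1 library (adjusted p at most 0.0237). With libraries 1 and 2 summed, the differences were -0.52 for Loxl4 (adjusted p = 0.0815) and -0.25 for Plod3 (adjusted p = 0.0823). Of all genes 27.0% were called in this comparison, and of the members 2 of 8. That share is close to the background.

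The smooth muscle list moved with time in injured BALF, 5269 ± 956 CPM at 24 h and 9099 ± 1906 CPM at 6 h, and the pericyte list was 603 ± 138 CPM and 782 ± 209 CPM (SD, n = 6 each). The neutrophil list was 3.39 ± 1.303 CPM at 24 h and 1.68 ± 0.75 CPM at 6 h, and the fibroblast list 7776 ± 1818 CPM and 8046 ± 1690 CPM. The part of these lists in the Loxl4 and Plod3 falls was not tested.

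Plod3 also fell in uninjured BALF, with 240, 276 and 298 CPM at 24 h, against 273, 315 and 337 CPM at 6 h, a difference of -0.21 ± 0.08 (edgeR adjusted p = 0.0367). This call did not survive upper-quartile scaling (-0.13, adjusted p = 0.202) and ended without any one of 6 uninjured BALF libraries: female 24 h replicate 2 (adjusted p = 0.0868), male 24 h replicate 3 (0.0742), female 6 h replicate 1 (0.0557), female 6 h replicate 3 (0.0784), male 6 h replicate 1 (0.104) and male 6 h replicate 2 (0.0722). Of all genes 30.7% were called, and of the members 1 of 8. In media only, Plod3 had 204, 266 and 285 CPM at 24 h, against 250, 282 and 294 CPM at 6 h, and its difference of -0.12 ± 0.08 was not called (interval -0.27 to 0.04, adjusted p = 0.364).

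Loxl1, Plod1 and Plod2 had differences of the other sign, none of them called. Loxl1 differed by 0.13 ± 0.14 in injured BALF, by 0.32 ± 0.14 in uninjured BALF (interval 0.02 to 0.61, adjusted p = 0.0907) and by 0.21 ± 0.14 in media only. In uninjured BALF it had 376, 500 and 557 CPM at 24 h, against 302, 395 and 458 CPM at 6 h, with 4 of 6 libraries at 24 h above every library at 6 h, and it passed under upper-quartile scaling (0.40, adjusted p = 0.0272). Plod1 had 91.0, 137 and 171 CPM in injured BALF at 24 h, against 79.0, 104 and 130 CPM at 6 h, and Plod2 had 291, 371 and 537 CPM at 24 h, against 236, 337 and 381 CPM at 6 h. These groups overlapped. Plod1 differed between 24 h and 6 h by 0.37 ± 0.17 in injured BALF (adjusted p = 0.109), by 0.39 ± 0.17 in uninjured BALF (adjusted p = 0.0794) and by 0.17 ± 0.17 in media only (adjusted p = 0.592). In uninjured BALF it passed the threshold under upper-quartile scaling (0.47, adjusted p = 0.0343), without female 24 h replicate 2 (0.49, adjusted p = 0.0293) and without male 6 h replicate 1 (0.48, adjusted p = 0.0463), and in injured BALF without female 24 h replicate 2 (0.47, adjusted p = 0.0415). Plod2 differed by 0.29 ± 0.17, 0.22 ± 0.17 and 0.27 ± 0.17 in the 3 treatments, none of them called.

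Loxl2 was close to the threshold in injured BALF. It had 423, 547 and 612 CPM at 24 h, against 556, 719 and 805 CPM at 6 h, with 4 of 6 libraries at 24 h below every library at 6 h. The difference was -0.39 ± 0.15 (interval -0.69 to -0.08, adjusted p = 0.0552), and it passed with DESeq2 (-0.38, adjusted p = 0.04996). It also passed when 1 of 6 libraries was left out, with adjusted p between 0.0148 and 0.0464: injured BALF female 24 h replicate 1 and female 6 h replicate 3, and media only female 24 h replicates 1, 2 and 3 and female 6 h replicate 3. In media only, 0 of 8 members were called by edgeR, 1 of 8 at an unadjusted p under 0.05 and 1 of 8 by DESeq2 (Loxl3, -0.45, adjusted p = 0.0486), where 6.84% of all genes were called. Loxl3 had 163, 297 and 388 CPM there at 24 h, against 241, 420 and 438 CPM at 6 h, an edgeR difference of -0.44 ± 0.15 (adjusted p = 0.0779). That difference passed without female media only 6 h replicate 3 (-0.55, adjusted p = 0.0282).

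Whether the effect of injured against uninjured BALF changed with time was tested as a difference of effects, 24 h minus 6 h. The value was -0.57 ± 0.21 for Loxl4 (edgeR adjusted p = 0.380) and -0.46 ± 0.22 for Loxl3 (edgeR adjusted p = 0.622). Below 0 were 7 of the 8, where 51.6% of all genes were. The count was 0 of 8 members by edgeR and by DESeq2, with 2 of 8 at an unadjusted p under 0.05, and 0.239% of all genes were called. With all libraries numbered 3 left out, the Loxl4 value was -0.77 (adjusted p = 0.0211). The 24 h effects of injured BALF on Loxl3 and Loxl4 are therefore not shown to differ from those at 6 h.

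Sex was compared over all groups, with 18 female and 18 male libraries. Loxl3 was lower in female cells by a log2 difference of -0.33 ± 0.09 (edgeR adjusted p = 0.0273), and 1 of 8 members was called, where 5.35% of all genes were. Its female mean was below its male mean in 6 of 6 treatment-by-hours groups. At 24 h the female and male means were 215 and 237 CPM in injured BALF, 286 and 417 CPM in uninjured BALF, and 219 and 364 CPM in media only. At 6 h they were 279 and 289 CPM in injured BALF, 304 and 329 CPM in uninjured BALF, and 338 and 437 CPM in media only. The call ended without any one of 5 male libraries, with adjusted p between 0.0502 and 0.0570: injured BALF 24 h replicates 1 and 2, injured BALF 6 h replicate 2, uninjured BALF 24 h replicate 3 and uninjured BALF 6 h replicate 1. It also ended without the 4 libraries of differing description number, most of which are male. The endothelial list had a lowest, median and highest value of 14.4, 79.8 and 146 CPM in female libraries, against 8.29, 28.6 and 182 CPM in male ones. The smooth muscle list had 3540, 8092 and 13425 CPM in female libraries, against 5629, 9836 and 11803 CPM in male ones, and the macrophage list 13.3, 63.9 and 82.6 CPM, against 13.6, 53.9 and 68.2 CPM. Their part in the Loxl3 difference was not tested. Plod1 differed by -0.24 ± 0.10 (adjusted p = 0.175) and passed with all libraries numbered 3 left out (-0.35, adjusted p = 0.0213). Lox differed by 0.02 ± 0.09 (interval -0.17 to 0.21).

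The female effect of injured against uninjured BALF did not differ detectably from the male effect for any member. The count called was 0 of 8 members and 0% of all genes at both times by edgeR, with 0 of 8 members by DESeq2 and at an unadjusted p under 0.05, where 113 of all genes were at 6 h and 150 at 24 h.

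The members did not vary as one set across the libraries. Over the 36 libraries, Pearson's r of log2 CPM was 0.74 between Lox and Loxl2, 0.68 between Loxl1 and Plod1 and 0.60 between Loxl1 and Plod2, while Lox and Plod1 had -0.07 and Loxl4 and Plod1 -0.41. Within groups, after each group mean was taken off, most pairs were above 0. There r was 0.88 between Loxl1 and Loxl3, 0.83 between Lox and Loxl2 and 0.66 between Plod1 and Plod2. For Lox and Plod1 it was 0.17. Loxl4 had the lowest values, -0.35 with Loxl3 and -0.41 with Plod1. These are descriptions over libraries that share treatments, scaling and, for numbers 1 and 2, much of their spread. Lox was lowest in the library numbered 3 in 10 of 12 groups, Plod2 in 9 and Loxl4 in 6.

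**Figure D4:**
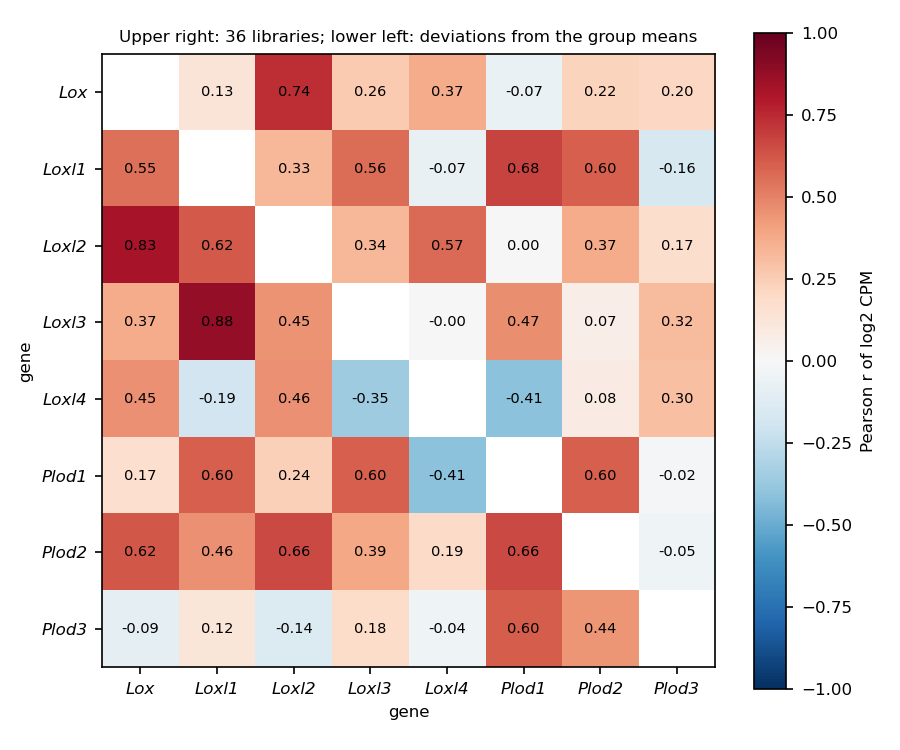
Pearson's r of log2 CPM between each pair of members, above the diagonal over 36 libraries and below it after each group mean was taken off. Loxl1 and Loxl3 reach 0.88 within groups, and Loxl4 is at -0.41 with Plod1.

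The 3 genes whose log2 CPM was most like each member over the 36 libraries were chosen from 10773 genes of average log2 CPM 2 or more. For Lox they were Sec24a (r = 0.89), Mob1b (0.89) and Rnf11 (0.89), and for Loxl1 they were Lsp1 (0.91), Plxdc2 (0.90) and Mxra7 (0.89). For Loxl2 they were Ldlrad4 (0.89), Rrbp1 (0.89) and Chd9 (0.87), and for Loxl3 Gcnt4 (0.84), Adamts6 (0.82) and Pdgfc (0.80). Loxl4 was most like Dlc1 (0.82), Speg (0.75) and Ddr1 (0.74). Plod1 was most like Nid2 (0.86), Mmp23 (0.86) and Syne3 (0.85), Plod2 like Rtn2 (0.89), Cdk14 (0.88) and Maged1 (0.86), and Plod3 like Phgdh (0.80), Klhl26 (0.80) and Rnf121 (0.80). None of these was another member of either family.

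The other genes of cross-link formation were counted by their roles in injured against uninjured BALF, first at 24 h. Of all genes, 4.42% were called in this comparison at 24 h and 3.43% at 6 h. These shares stand beside every list count of this comparison. Among 9 fibrillar collagens, the main substrates, 1 rose and 1 fell at 24 h, with a list median of -0.37. Col5a1, a chain of collagen V, averaged 1366 ± 190 CPM in injured BALF and 2180 ± 472 CPM in uninjured BALF (SD, n = 6 each), a log2 difference of -0.67 ± 0.16 (edgeR adjusted p = 0.0101). That call ended without female uninjured BALF 24 h replicate 3 (adjusted p = 0.0586). Col5a3, another chain of collagen V, averaged 59.3 ± 8.1 CPM in injured BALF and 35.01 ± 3.72 CPM in uninjured BALF, a difference of 0.76 ± 0.16 (adjusted p = 0.00329). At 6 h Col5a3 averaged 223 ± 23 CPM in injured BALF and 79.1 ± 19.1 CPM in uninjured BALF (1.49 ± 0.16, adjusted p = 5.08e-07), the 1 collagen of the list called at that time, and it was called there also with libraries 1 and 2 summed (adjusted p = 0.00437), whereas the 24 h calls of Col5a1 (0.102) and Col5a3 (0.0737) were lost. None of 6 basement membrane collagen chains was called at either time, with list medians of -0.19 at 24 h and -0.08 at 6 h.

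Of 12 elastic fibre genes, 2 fell and none rose at 24 h, with a median of -0.20. Eln, elastin itself and a substrate of Lox and Loxl1, averaged 19.1 ± 10.5 CPM in injured BALF and 146 ± 119 CPM in uninjured BALF, a difference of -2.92 ± 0.72 (edgeR adjusted p = 0.0150). Fbln5, fibulin 5, which brings Loxl1 to elastin, averaged 259 ± 96 CPM in injured BALF and 546 ± 181 CPM in uninjured BALF, a difference of -1.05 ± 0.27 (adjusted p = 0.0230). The Eln call ended without male injured BALF 24 h replicate 3 (adjusted p = 0.0529), female uninjured BALF 24 h replicate 3 (0.0879) or male uninjured BALF 24 h replicate 1 (0.0501), and the Fbln5 call without those (0.0742, 0.110 and 0.0695) or without female injured BALF 24 h replicate 2 (0.0636). With libraries 1 and 2 summed the adjusted p was 0.168 for Eln and 0.172 for Fbln5. At 6 h none of the 12 was called, with a median of -0.10.

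The genes around the hydroxylases gave few calls. Of 10 genes of collagen prolyl hydroxylation 1 fell at 24 h: P4ha3, a catalytic subunit of prolyl hydroxylase, averaged 33.3 ± 8.1 CPM in injured BALF and 61.5 ± 27.0 CPM in uninjured BALF (-0.80 ± 0.19, edgeR adjusted p = 0.0120). Of 5 glycosylation and folding partners tested 1 rose at 24 h: Tmem38b, a channel of the endoplasmic reticulum, averaged 27.7 ± 3.5 CPM in injured BALF and 21.1 ± 2.2 CPM in uninjured BALF (0.39 ± 0.09, adjusted p = 0.00818). Neither list had a call at 6 h. Of 13 genes of TGF-beta signalling, a pathway known to induce Lox, 2 fell at 24 h. Tgfb2 averaged 23.9 ± 5.8 CPM in injured BALF and 43.9 ± 8.7 CPM in uninjured BALF (-0.88 ± 0.20, adjusted p = 0.00680), and Tgfb3 117 ± 22 CPM and 236 ± 78 CPM in those groups (-1.03 ± 0.23, adjusted p = 0.00800). At 6 h 1 of the 13 rose, Smad3, which carries the signal to the nucleus (0.54 ± 0.13, adjusted p = 0.0147). The Smad3 call ended without female injured BALF 6 h replicate 2 or male injured BALF 6 h replicate 2 (adjusted p up to 0.0539). None of these 5 calls held with libraries 1 and 2 summed, with adjusted p of 0.122 for P4ha3, 0.102 for Tmem38b, 0.207 for Tgfb2, 0.103 for Tgfb3 and 0.349 for Smad3.

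The cofactor genes were counted as copper supply and as ascorbate and iron supply, lists made up largely of metal genes. Of 10 genes of copper supply 2 rose at both times, the metallothioneins Mt1 and Mt2, which bind zinc and copper, and no copper pump or chaperone of the list was called. Mt2 averaged 255 ± 47 CPM in injured BALF and 105 ± 56 CPM in uninjured BALF at 24 h (1.29 ± 0.25, edgeR adjusted p = 0.00217), and 355 ± 90 CPM and 103 ± 22 CPM at 6 h (1.79 ± 0.26, adjusted p = 4.71e-05). Of 6 genes of ascorbate and iron supply, Slc11a2, an iron importer, rose at both times, with 113 ± 11 CPM in injured BALF and 54.2 ± 14.4 CPM in uninjured BALF at 24 h (1.07 ± 0.12, adjusted p = 3.36e-06). Tfrc, the transferrin receptor, also passed at 24 h (0.56 ± 0.15, adjusted p = 0.0253), in 30 of 36 omissions of 1 library. Slc40a1, an iron exporter, passed at 6 h (-1.29 ± 0.37, adjusted p = 0.0460), in only 13 of 36 such omissions and not under upper-quartile scaling. Mt2 and Slc11a2 were called at both times also with libraries 1 and 2 summed (adjusted p = 0.0382 for Mt2 and 0.00530 for Slc11a2 at 24 h), and Mt1 at 24 h (0.0285). Mt1 at 6 h (0.228), Tfrc (0.273) and Slc40a1 (0.370) were not.

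Of 7 collagenases and gelatinases, the enzymes that cut collagen, 3 rose at 24 h and 2 at 6 h, and none fell. The shares over all genes were 4.42% and 3.43%. Mmp13, a collagenase, averaged 133 ± 66 CPM in injured BALF and 23.4 ± 24.7 CPM in uninjured BALF at 24 h (2.70 ± 0.41, edgeR adjusted p = 2.13e-04), and 287 ± 77 CPM and 50.7 ± 13.8 CPM at 6 h (2.50 ± 0.41, adjusted p = 2.20e-04). Mmp9, a gelatinase that neutrophils also carry, averaged 8.02 ± 4.56 CPM in injured BALF and 1.22 ± 1.08 CPM in uninjured BALF at 24 h (2.69 ± 0.43, adjusted p = 3.47e-04). With libraries 1 and 2 summed, both were called at 24 h (adjusted p = 0.0150 for Mmp13 and 0.0370 for Mmp9), and the third, Mmp8, was not (0.142). The neutrophil list moved in the same comparison, as given above, and its part was not tested.

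Of 7 tested genes that process procollagen or the lysyl oxidase precursors, none was called at 24 h and 1 rose at 6 h, Adamts14 (0.74 ± 0.19, edgeR adjusted p = 0.0191), a procollagen N-proteinase. That call held in 31 of 36 omissions of 1 library and not with libraries 1 and 2 summed (adjusted p = 0.286). Of 6 matrix partners of lysyl oxidase none was called at either time.

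The same lists were counted in uninjured BALF against media only, where 0.868% of all genes were called at 24 h and 18.4% at 6 h. At 24 h, 1 of 6 matrix partners of lysyl oxidase fell, Fmod, fibromodulin (-1.55 ± 0.34, edgeR adjusted p = 0.0241), and 1 of 12 elastic fibre genes, Mfap4 (-1.03 ± 0.25, adjusted p = 0.0473). Of TGF-beta genes Tgfb2 fell (-0.83 ± 0.19, adjusted p = 0.0328), and of metal genes Mt1 (0.77 ± 0.18, adjusted p = 0.0318), Mt2 (1.47 ± 0.26, adjusted p = 0.00200) and Tfrc (0.98 ± 0.15, adjusted p = 5.89e-04) rose. None of these 6 calls at 24 h held with libraries 1 and 2 summed (adjusted p from 0.128 to 0.666), and Mfap4 held in only 15 of 36 omissions of 1 library, against 28 for Tgfb2, 29 for Mt1 and 31 for Fmod.

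At 6 h, 4 of 6 genes of ascorbate and iron supply rose and 1 fell in uninjured BALF against media only. Those that rose with the lowest p were Slc40a1 (1.81 ± 0.37, edgeR adjusted p = 9.96e-04) and Slc11a2 (0.58 ± 0.12, adjusted p = 0.00121), both called also with libraries 1 and 2 summed, and Fth1, a ferritin chain (0.69 ± 0.20, adjusted p = 0.0173), which was not. Of 14 hypoxia-inducible factor targets 3 rose and 4 fell, led by Ankrd37 (-1.90 ± 0.24, adjusted p = 3.17e-06), Adm, adrenomedullin (0.70 ± 0.12, adjusted p = 1.64e-04), and Bnip3, a mitophagy receptor (-1.25 ± 0.25, adjusted p = 8.82e-04), and these 3 held when summed. Mt1 (0.86 ± 0.18, adjusted p = 0.00107), Mt2 (1.45 ± 0.26, adjusted p = 1.83e-04) and Col5a3 (1.29 ± 0.16, adjusted p = 1.51e-06) rose and held likewise.

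Of 10 prolyl hydroxylation genes 2 fell in that comparison, P4ha1 (-0.43 ± 0.12, edgeR adjusted p = 0.0112) and P4ha3 (-0.58 ± 0.19, adjusted p = 0.0323), and neither held when summed (0.0631 and 0.123). TGF-beta signalling had Tgfb1 higher (0.96 ± 0.25, adjusted p = 0.00650), which held, and Smad6, an inhibitor, lower (-0.91 ± 0.22, adjusted p = 0.00368), which did not (0.161). Mmp13 (1.27 ± 0.40, adjusted p = 0.0244) and Tll1, a procollagen C-proteinase (0.75 ± 0.24, adjusted p = 0.0280), were higher and did not hold (0.0778 and 0.126). The uninjured BALF libraries enter both these values and those of injured against uninjured BALF.

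Of 14 targets of hypoxia-inducible factors, a group to which Lox, Loxl2, Plod1 and Plod2 are often added, 10 rose and 1 fell at 24 h against 6 h in injured BALF, with a list median of 0.82, where 27.0% of all genes were called. In uninjured BALF 6 rose and 1 fell (median 0.58), where 30.7% of all genes were called, and in media only 3 rose (median 0.26), where 6.84% were. In the same 3 comparisons Lox differed by -0.23 ± 0.16, -0.13 ± 0.16 and -0.23 ± 0.16, and Loxl2 by -0.39 ± 0.15, -0.12 ± 0.15 and -0.04 ± 0.15. Plod1 differed by 0.37 ± 0.17, 0.39 ± 0.17 and 0.17 ± 0.17, and Plod2 by 0.29 ± 0.17, 0.22 ± 0.17 and 0.27 ± 0.17. None of these 4 members was called. The members' medians were -0.25, 0.08 and -0.04, against 0.01, 0.02 and 0.03 over all genes.

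In the GENCODE M21 annotation, Loxl3 (chr6:83034173-83052562, plus strand) shares bases with Htra2 on the other strand, which had 19.4 to 69.4 CPM without TMM scaling, and Plod3 (chr5:136987019-136996648, plus strand) with Znhit1 on the other strand, at 16.3 to 34.0 CPM. Plod2 (chr9:92542223-92608428, plus strand) overlaps Gm38391 on the other strand, at no more than 2.31 CPM, and Loxl2 (chr14:69609068-69695834, plus strand) overlaps Gm27177 and Gm37513, with at most 1 count in any library. The microRNA genes Mir6950, Mir7040 and Mir702 lie within Loxl2, Loxl3 and Plod3 on the same strand, with at most 4 counts. The kit keeps strand, but the sources used here do not say whether the counting used it, so reads in the shared stretches cannot be assigned with certainty. No gene of the count table shares bases with Lox (chr18:52516067-52529867, minus strand), Loxl1 (chr9:58287738-58313186, minus strand), Loxl4 (chr19:42593982-42612813, minus strand) or Plod1 (chr4:147909753-147936767, minus strand).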

How the data were processed

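Per the labels' protocols, a kit for stranded mRNA libraries was used. The authors deposited 1 table of whole-number counts per gene. STAR 2.5.2b, RSEM 1.2.31, DESeq2 and build GRCm38 are named in the submitters' processing notes, without their role, so the counts may be rounded estimates. Identifiers were matched to GENCODE M21 (48435 of 48795, 99.26%). Groups, sexes and numbers came from the labels. Counts were scaled by TMM, filtered with filterByExpr and tested with edgeR 4.0.16 (R 4.3.3) quasi-likelihood on all 36 libraries in 12 groups with 24 residual degrees of freedom. The fit was also run on simulated counts, drawn independently for each library. That run therefore cannot test the effect of spread shared between libraries. DESeq2 1.42.0 was an alternative. Intervals are at 95%. RPKM uses the union of exons. All members are described. Named besides are at most 3 called genes of lowest p per pathway list and treatment comparison, and the 3 genes most like each member by Pearson's r with a prior count of 2. The members, lists and alternatives were chosen with earlier results of these data known. Same-numbered libraries were not paired in the main fit: their deviations from the group means correlated over 0.1 in only part of the pairs. In female cells, though, their median correlation lay above that of differently numbered libraries.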

Additional observations from a re-analysis of the deposited data

Results flagged for a closer look

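Loxl1 was at 304 CPM (303.61) in female media only 6 h replicate 3, where the other 5 libraries of the group lay between 482 and 529 CPM. Loxl3 was at 241 CPM (241.23) in the same library, with the others between 365 and 438 CPM. That library had 2.05% mitochondrial counts and its endothelial list, at 146 CPM, was the highest of the media only libraries. Loxl2 was at 1082 CPM (1081.8) in female media only 24 h replicate 1, with the others between 521 and 684 CPM; that library had 3.87% mitochondrial counts, the highest of all, against a median of 1.44%. The gap to the nearest library took 0.790, 0.631 and 0.710 of the range of the 6 libraries for Loxl1, Loxl3 and Loxl2. There were 48 groups tested and 3 such libraries, and chance alone gives about 1 in 20. The part of mitochondrial share or marker levels in these values was not tested.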

How the results depend on the processing

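Member counts are given as called. Summing libraries 1 and 2 gave 0 in every comparison, as did leaving out all libraries numbered 1 or all numbered 2. Leaving out all numbered 3 gave 2 (injured against uninjured BALF, 24 h), 1 (uninjured BALF against media only, 6 h), 4 (injured BALF against media only, 24 h), 4 (24 h against 6 h, injured BALF), 1 (24 h against 6 h, media only), 1 (injury effect, 24 h minus 6 h) and 2 (female against male); fewer libraries enter all of these. With the replicate block the count was 1 for injured BALF against media only at 24 h and 3 for 24 h against 6 h in uninjured BALF, and moved nowhere else by more than 1.5 times. It ended the Loxl4 call of the first (adjusted p = 0.0571), added Loxl1 (0.0401) and Plod1 (0.0467) to the second, and put Loxl2 past the threshold for 24 h against 6 h in injured BALF (0.0165). Same-numbered libraries correlated between -0.491 and 0.654. In female cells their median r was 0.267, 0.307 and 0.431 for numbers 1, 2 and 3, against -0.146 for different numbers. In male cells it was 0.0533, 0.109 and -0.0488, against -0.0239. The number was not used as a pairing in the main fit. Any spread that same-numbered libraries share is therefore not taken out of its p-values. Fitting only the groups compared gave 0 (injured against uninjured BALF, 24 h), 1 and 1 (injured BALF against media only, 6 h and 24 h) and 0 (24 h against 6 h, uninjured BALF). Ignoring sex or using no low-count filter gave 1 for injured BALF against media only at 6 h; no filter also gave 0, and upper-quartile scaling 2, for 24 h against 6 h in uninjured BALF. DESeq2 gave 1 for 24 h against 6 h in media only. An adjusted p under 0.01 gave 0 everywhere except 24 h against 6 h in injured BALF, where it gave 2. Without the 4 libraries of differing numbers it was 0 for injured BALF against media only at 6 h, 1 at 24 h, and 0 for 24 h against 6 h in uninjured BALF and for female against male. Leaving out 1 library at a time gave 0 to 1 (injured against uninjured BALF, 24 h; uninjured BALF against media only, 6 h; 24 h against 6 h in uninjured BALF and in media only; female against male), 0 to 2 (injured BALF against media only, both times) and 2 to 3 (24 h against 6 h, injured BALF). The cause was not tested. No called member value changed sign; 30 uncalled ones did in at least 1 alternative. No block or groups-only value was made for female against male, and none without sex for sex comparisons. Over all genes, calls ran from 113 to 1079 around 703 for injured against uninjured BALF at 24 h and from 69 to 752 around 546 at 6 h; for uninjured BALF against media only from 0 to 502 around 138 and from 941 to 3574 around 2923; for injured BALF against media only from 1341 to 4512 around 3774 and from 1934 to 4614 around 4011; for 24 h against 6 h from 2028 to 4951 around 4295 in injured BALF, 1943 to 5649 around 4881 in uninjured BALF and 0 to 1770 around 1087 in media only; and from 99 to 1072 around 850 for female against male. The injury effect, 24 h minus 6 h, gave 0 to 233 around 38, and the lavage effect 1 to 623 around 312. Upper-quartile scaling put the share of calls that were higher at 57.7% (47.3% with TMM) for 24 h against 6 h in injured BALF, 62.1% (49.5%) in uninjured BALF, 43.9% (54.9%) for injured and 45.0% (57.4%) for uninjured BALF against media only at 6 h, and 51.4% (63.2%) and 49.5% (35.3%) for the time differences of the injury and lavage effects. Of 53 called values of list genes, 33 held in every omission of 1 library and 20 with libraries 1 and 2 summed. Counts of the lowest member, Loxl4, were 1175 to 3136 per library.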
